A study of Caenorhabditis elegans with 5 samples.

Results

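The 8 genes described here, lin-14, lin-28, lin-29, lin-41, lin-42, lin-46, hbl-1 and mab-10, belong to the heterochronic pathway, which times the larval stages of Caenorhabditis elegans. They were taken by name, 8 of 19985 protein-coding genes in the Ensembl annotation, because the animals were L4 larvae. A peak was assigned to a gene when its summit lay between 2000 bp upstream of the outermost 5' end and 1000 bp past the 3' end, and 66 of the 24897 pooled peaks were. Binding of ATTF-4, an AT-hook protein, had been mapped by ChIP-seq, in which DNA bound by a protein is recovered with an antibody and sequenced. All samples came from whole L4 larvae, pooled male and female and of unknown age, of strain OP219 (unc-119(ed3) III; wgIs219). This line carries a transgene in which attf-4 (C05D10.1) ends in a GFP-FLAG tag at its C terminus, so the lists describe the tagged copy. There was 1 group, with 3 biological replicates sequenced as 5 libraries, of which replicate 1 had 1 and the others had 2 each. Because whole animals were used, strong binding in few cells and weak binding in many cells cannot be told apart.

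The heterochronic pathway is a chain of switches that tell each cell which larval stage it is in. Early factors, LIN-14, LIN-28 and HBL-1, hold cells in early fates until microRNAs of the lin-4 and let-7 families lower their production. The later RNA-binding protein LIN-41 holds back LIN-29, and LIN-29 with its cofactor MAB-10 starts the switch of the skin from larva to adult around the L4 molt. LIN-42 resembles the clock protein Period and its level rises and falls with each molt.

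For each peak the authors' lists give a signal, the peak caller's own measure of strength, and a −log10 q-value. The signal has no stated scale, so peaks were ranked by it within a list and not compared between lists by size. The pooled list had a median signal of 9.35 and its 173 strongest peaks formed the final set, which the authors kept by reproducibility, with a lowest signal of 29.4. The replicate lists held 30000, 22227 and 30000 peaks, and like the pooled list they include background entries, so most low-ranked peaks carry little evidence of binding. A pooled peak was counted as found in a replicate when that list had a summit within 100 bp. With 1 group there is no contrast to test, and counts of members are set beside shares over all genes or all pooled peaks. The attf-4 locus itself, present in extra copies in such a strain, had 5 pooled peaks and none of the final set, the strongest 88 bp upstream with a signal of 18.8 (rank 992).

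Final-set peaks lay at 2 of the 8 genes, lin-14 and lin-42. Over all protein-coding genes 1.09% had a final-set summit in the same window, 3% where the window was at least 20 kb long and 1.06% where it was shorter. The lin-14, lin-42 and lin-29 windows, 23.3, 22.1 and 20.7 kb, belong to the long class, and lin-29 had no final-set peak. The sequences under the lin-14 and lin-42 peaks are shown because these had the highest pooled signals at the members. Those at puf-9 and the microRNA gene mir-241, the other timing genes with a final-set peak, are shown with them. Each is 300 bp of the RefSeq genome (WBcel235, which is ce11), written 5' to 3' on the strand of its gene, with the summit at position 151. Capitals mark 4 short words on either strand, namely AAATTT (which has only A and T, as do the sites that AT-hooks usually contact), CCTGCG (frequent in the final set), GCGCGC (which alternates G and C) and GAGAGA (which alternates G and A). The windows are chrX:11465217-11465516 on the plus strand for lin-14, chrII:1246996-1247295 on the minus strand for lin-42, chrX:5841116-5841415 on the plus strand for puf-9 and chrV:14366571-14366870 on the minus strand for mir-241, and none holds a base of a protein-coding exon.
lin-14: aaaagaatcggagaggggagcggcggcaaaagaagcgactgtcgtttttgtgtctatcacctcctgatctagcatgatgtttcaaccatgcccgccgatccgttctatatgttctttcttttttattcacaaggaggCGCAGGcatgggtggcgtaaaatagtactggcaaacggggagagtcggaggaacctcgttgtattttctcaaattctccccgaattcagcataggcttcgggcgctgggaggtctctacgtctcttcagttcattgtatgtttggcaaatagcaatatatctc
lin-42: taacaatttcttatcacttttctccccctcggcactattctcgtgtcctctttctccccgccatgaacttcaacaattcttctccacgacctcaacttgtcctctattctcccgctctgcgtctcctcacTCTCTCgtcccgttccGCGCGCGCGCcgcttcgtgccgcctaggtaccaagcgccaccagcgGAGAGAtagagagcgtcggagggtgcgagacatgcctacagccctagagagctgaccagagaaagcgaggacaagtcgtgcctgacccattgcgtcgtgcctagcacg
puf-9: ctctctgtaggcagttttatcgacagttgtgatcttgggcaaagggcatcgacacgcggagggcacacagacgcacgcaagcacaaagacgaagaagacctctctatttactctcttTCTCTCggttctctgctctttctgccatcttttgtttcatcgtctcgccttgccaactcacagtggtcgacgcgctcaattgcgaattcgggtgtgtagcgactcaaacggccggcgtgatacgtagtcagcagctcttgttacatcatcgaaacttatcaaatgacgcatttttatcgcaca
mir-241: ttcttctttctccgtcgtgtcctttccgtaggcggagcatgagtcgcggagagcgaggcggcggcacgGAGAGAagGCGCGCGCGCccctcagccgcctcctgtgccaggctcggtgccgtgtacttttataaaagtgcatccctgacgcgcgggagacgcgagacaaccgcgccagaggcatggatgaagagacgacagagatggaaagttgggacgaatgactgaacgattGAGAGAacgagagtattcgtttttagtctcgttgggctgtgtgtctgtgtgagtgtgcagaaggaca

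The lin-42 and mir-241 sequences share a composition that the lin-14 and puf-9 sequences lack. GC content within 100 bp of the summit was 60.2% at lin-42, 60.2% at mir-241, 53.2% at puf-9 and 49.2% at lin-14. The lin-42 and mir-241 sequences each hold 3 overlapping copies of GCGCGC in a single run and 2 copies of GAGAGA. The puf-9 sequence holds 1 GAGAGA, written there on the other strand as TCTCTC. The lin-14 sequence holds neither of these words and 1 copy of CCTGCG, written there on the other strand as CGCAGG, and no AAATTT was present in any of the sequences. The last 2 words of the 4 were picked after sequences had been read, and all 4 were chosen with earlier results of these data known. A match to a word describes the letters and calls no site.

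lin-14 encodes a nuclear factor that is abundant in the L1 stage and holds cells in early fates. The gene lies on X at 11465560 to 11485871 on the plus strand, with 2 annotated isoforms, T25C12.1a.1 from the outer 5' end and the shorter T25C12.1b.1. It held 20 of the 66 peaks, with signals from 7.18 to 37.9 and a median of 11.5. The strongest lay 193 bp upstream of the 5' end of isoform a and had a pooled signal of 37.9 (rank 82). In replicate 1 the signal there was 7.55 (rank 2257), in replicate 2 it was 6.93 (rank 733) and in replicate 3 it was 26.4 (rank 51). All 3 lists thus held a summit in this place, high in the list of replicate 3 and lower in the others. The ncRNA genes T25C12.8 and T25C12.9 lie within 100 bp of the same summit.

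The lin-14 gene also had a second strong place, inside the gene. A pooled peak 16387 bp past the outer 5' end, with a signal of 24.4 (rank 352), fell in intron 5 of isoform a and intron 3 of isoform b, 1586 bp past the 5' end of isoform b. In the lists of replicates 1 and 2 this region, not the upstream peak, held the strongest lin-14 summit. The replicate 1 summit, 101 bp from the pooled one and so just outside the matching distance, had a signal of 12.15 (rank 257). Replicate 1 had a nearly equal summit elsewhere, 8697 bp past the outer 5' end (11.82, rank 306), where the pooled peak was weak (9.84, rank 10813). At the intron 5 place the signal was 9.92 (rank 134) in replicate 2 and 9.49 (rank 2311) in replicate 3. Of the replicates, only replicate 3 ranked the upstream peak ahead of the intronic one.

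Between those places most lin-14 peaks lay in intron 3 of isoform a, upstream of isoform b. The strongest of them, 7830 bp past the outer 5' end and within 100 bp of the ncRNA gene T25C12.6, had a signal of 19.1 (rank 918), and its GC content of 62.2% was the highest of the 66 peaks. Replicates 2 and 3 held it at ranks 5032 and 1084, and replicate 1 did not. A weaker peak 13562 bp past the outer 5' end, 1239 bp upstream of isoform b, was the other lin-14 peak in all 3 lists, with a pooled signal of 13.0 (rank 4154). Peaks at 1785 bp (signal 18.0, by the ncRNA gene T25C12.7), 6604 bp (17.5) and 17464 bp (16.4) came next by signal, and replicate 3 ranked the last of these 204. The lin-14 window had 0.858 pooled peaks per kb.

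lin-42 encodes the Period-like protein of the pathway. It lies on chromosome II at 1233236 to 1252359 on the minus strand and has 7 isoforms with several 5' ends. Its strongest peak, of the final set, had a pooled signal of 31.5 (rank 138) and lay 5214 bp past the outer 5' end, in the first intron of the long isoforms F47F6.1d.1 and F47F6.1f.1. The 5' end shared by isoforms b and c lay 3110 bp further downstream. In replicate 1 the signal was 10.9 (rank 439), in replicate 2 it was 5.81 (rank 1644) and in replicate 3 it was 13.0 (rank 626). Every replicate thus held a summit within 26 bp of the pooled one, and the lin-42 peak was the only one of the 66 with all 3 replicate summits within 50 bp. Replicate 2 had a stronger summit 234 bp away (signal 7.97, rank 388). The ncRNA genes F47F6.13 and F47F6.15 lie within 100 bp of the pooled summit.

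The other 13 lin-42 peaks had signals from 7.40 to 15.6 and lay at or beyond 7367 bp from the outer 5' end, across the shorter isoforms. A peak at 9186 bp (signal 15.6, rank 2025) fell 862 bp past the 5' end of isoforms b and c. A peak at 18719 bp (15.6, rank 2029) fell in the last exon of isoforms a and b. Neither was found in all 3 lists. No pooled summit lay in the 2000 bp upstream of lin-42, where replicate 1 alone had an entry.

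**Figure D1:**
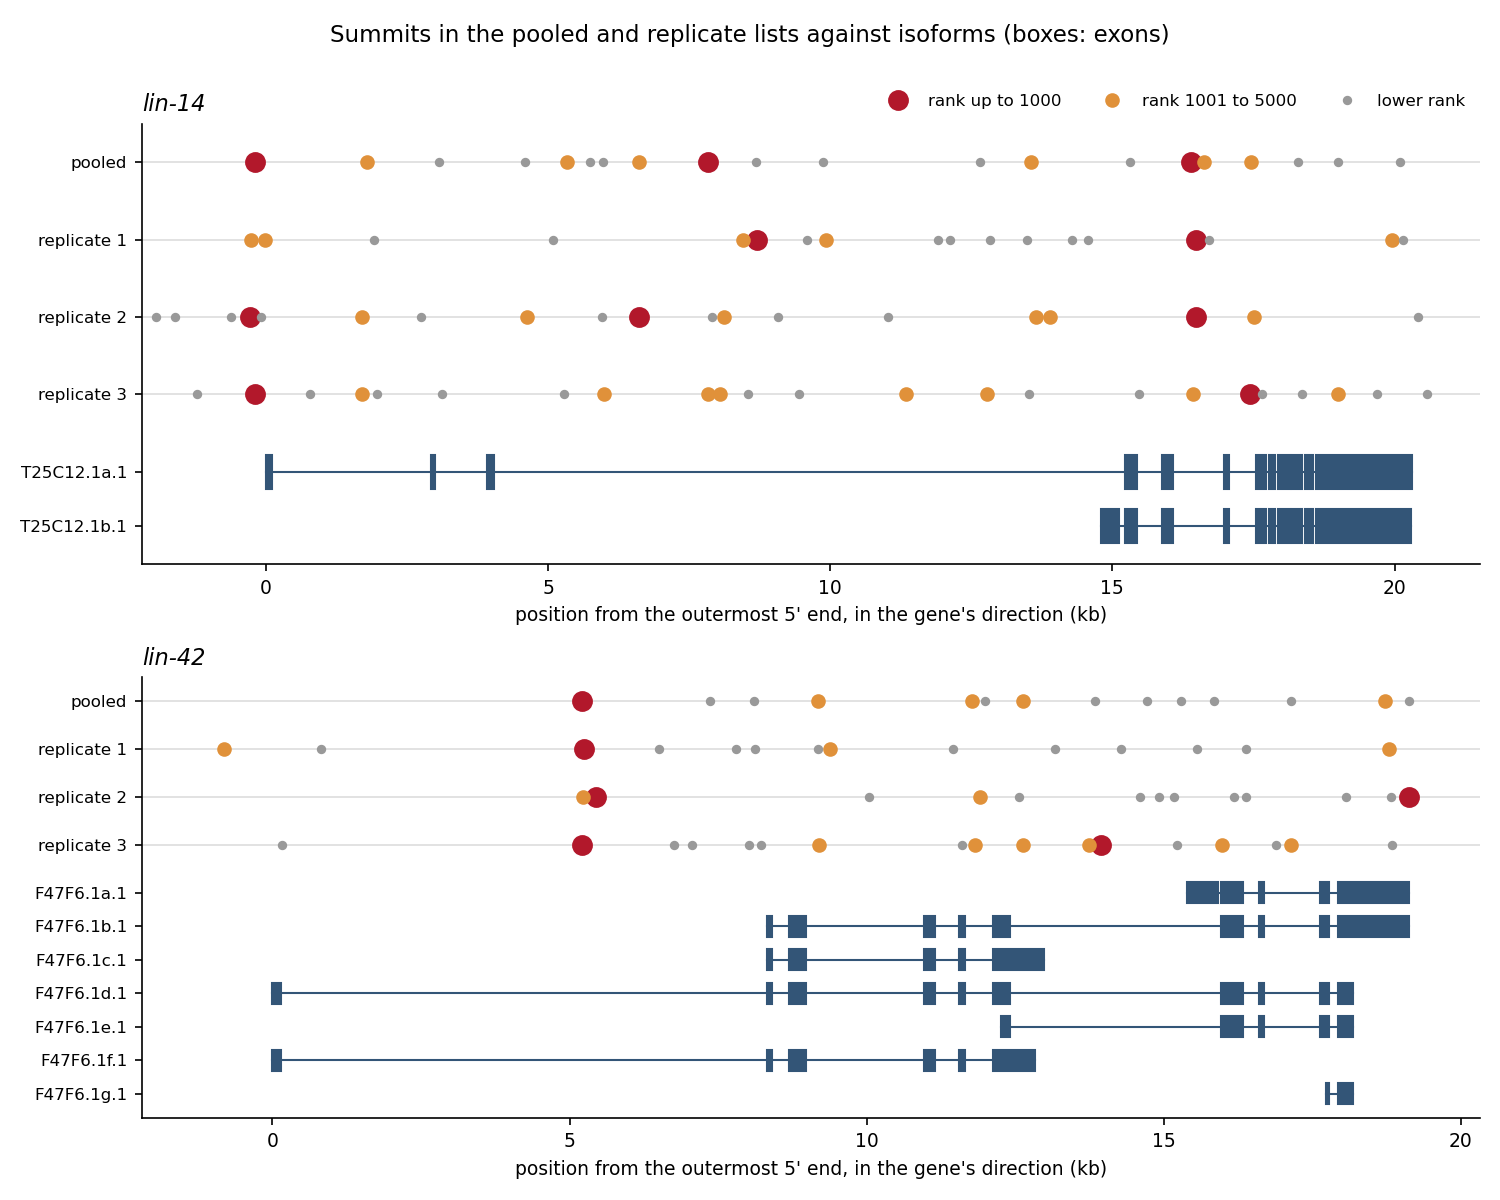
Summits of the pooled list and the 3 replicate lists along lin-14 and lin-42, with exons of every isoform as boxes; the horizontal axis is the distance from the outermost 5' end in kb, in the direction of the gene, and symbol size and colour give the rank within each list. The upstream lin-14 summit and the intronic lin-42 summit appear in all 4 rows, and the lin-14 region 16387 bp inside appears among the 1000 strongest of the pooled list and of replicates 1 and 2.

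The remaining early factors had weaker peaks. lin-28 encodes an RNA-binding protein that blocks maturation of let-7, and lies on chromosome I at 8407630 to 8410804 on the minus strand. The strongest of its 4 peaks lay 343 bp upstream of the 5' end, with a pooled signal of 20.6 (rank 664). It was found in replicate 1 with a signal of 4.25 (rank 12415) and in replicate 3 with 10.4 (rank 1544), and not in replicate 2. Replicates 1 and 2 had their strongest lin-28 summits inside the gene, 800 and 961 bp past the 5' end, with signals of 6.68 (rank 3524) and 5.84 (rank 1594). Upstream summits were nearly as strong in both. Replicate 1 had one 1529 bp upstream (6.43, rank 4004). Replicate 2 had one 557 bp upstream (5.675, rank 1821), 214 bp from the strongest pooled peak. A pooled peak near the summits inside the gene, 715 bp past the outer 5' end and 169 bp upstream of isoform F02E9.2b.1, had a signal of 11.0. The peak 1890 bp upstream (14.1) was nearer to the 5' end of F02E9.7, at 272 bp, than to lin-28.

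hbl-1 encodes a zinc finger factor related to Hunchback and lies on X at 5822142 to 5827755 on the plus strand. Its strongest pooled peak, with a signal of 14.2 (rank 2968), lay 250 bp past the 3' end, 1430 bp from the 5' end of acp-5, and was found in replicate 1 alone (signal 7.60, rank 2189). Within the gene, replicate 1 had a summit 2552 bp past the 5' end with a signal of 12.2 (rank 251), and replicate 2 had one at 3012 bp with 6.97 (rank 720). The nearest pooled peaks, at 2689 and 3207 bp in coding exons, had signals of only 8.73 (rank 14950) and 8.39 (rank 16498), both below the pooled median. Replicate 3 had its strongest summit 1172 bp upstream, with a signal of 8.20 (rank 4017). It lay 113 bp from a weak pooled peak 1285 bp upstream (9.89, rank 10642), the only hbl-1 peak with a summit of every replicate within 200 bp, at 68, 157 and 113 bp.

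lin-46 acts downstream of lin-28 and encodes a protein that restrains HBL-1. It is the smallest of the 8 genes, 1.88 kb on chromosome V (12968855 to 12970730, plus strand), and had 2 pooled peaks. One lay 297 bp upstream with a signal of 14.4 (rank 2793) and was found in replicate 3 alone (7.71, rank 5027). The other lay in an exon 1428 bp past the 5' end with a signal of 13.5 (rank 3596), 827 bp from the 5' end of pnn-1. Replicate 1 ranked this exonic summit 981 (9.14) and replicate 3 ranked it 9812 (6.18). Replicate 2 had 1 weak entry in the whole window (2.18, rank 20046).

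Among the late genes, lin-41 and mab-10 had pooled peaks upstream of their 5' ends and lin-29 did not. lin-41 encodes a TRIM-NHL RNA-binding protein, a main target of let-7, and lies on chromosome I at 9334800 to 9342496 on the minus strand. The strongest of its 6 peaks lay 1586 bp upstream, with a pooled signal of 21.4 (rank 575). Replicate 3 held it with a signal of 19.8 (rank 123), replicate 2 with 4.64 (rank 3821), and replicate 1 had no summit within 100 bp. Replicates 1 and 2 had no lin-41 summit among their 1000 strongest. A second pooled peak, with a signal of 14.3 (rank 2865), lay in a coding exon 36 bp past the 5' end of the shorter isoforms. It was found in replicate 3 alone, where it was weak (3.56, rank 29204).

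mab-10 encodes a NAB family cofactor of LIN-29 and lies on chromosome II at 10528084 to 10534380 on the plus strand. Its 8 pooled peaks gave 0.861 per kb, close to the density at lin-14. A pair of summits lay by the 5' end, one 241 bp upstream with a signal of 20.6 (rank 668) and one 13 bp upstream with 13.2 (rank 3846). The former was found in replicate 3 with a signal of 13.2 (rank 590) and in replicate 1 with 2.70 (rank 25680). The latter was found in replicate 2 alone, where its summit, 74 bp upstream, was the strongest of mab-10 at 8.69 (rank 253). Replicates 2 and 3 thus both placed a summit among their 1000 strongest just upstream of mab-10, at 74 and 202 bp, matched to different pooled peaks. A coding exon peak at 3073 bp had a signal of 15.0 (rank 2352) and was found in replicate 3 alone (4.82, rank 17589).

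lin-29 encodes the EGR family zinc finger factor that starts the adult program, and lies on chromosome II at 11917642 to 11935343 on the minus strand. It had the lowest peak density of the 8, 0.338 per kb, and 7 peaks with signals from 8.17 to 12.6, none upstream of the outer 5' end, where replicate 1 alone had an entry, at 337 bp (signal 6.10, rank 4798). The strongest, with a signal of 12.6 (rank 4622), lay in the last exon, 1150 bp from the 5' end of hmg-12. No replicate list had a summit within 100 bp of it, though replicate 1 had one 111 bp away (7.20, rank 2712). The best-ranked lin-29 summits of the replicates lay in 3 different places, 17569, 14661 and 1194 bp past the outer 5' end, at ranks 2712, 3525 and 2045. The first of these is the replicate 1 summit beside the strongest pooled peak. A pooled peak 673 bp past the 5' end of the short isoform W03C9.4c.1 (signal 10.8) was found in replicates 2 and 3.

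**Figure D2:**
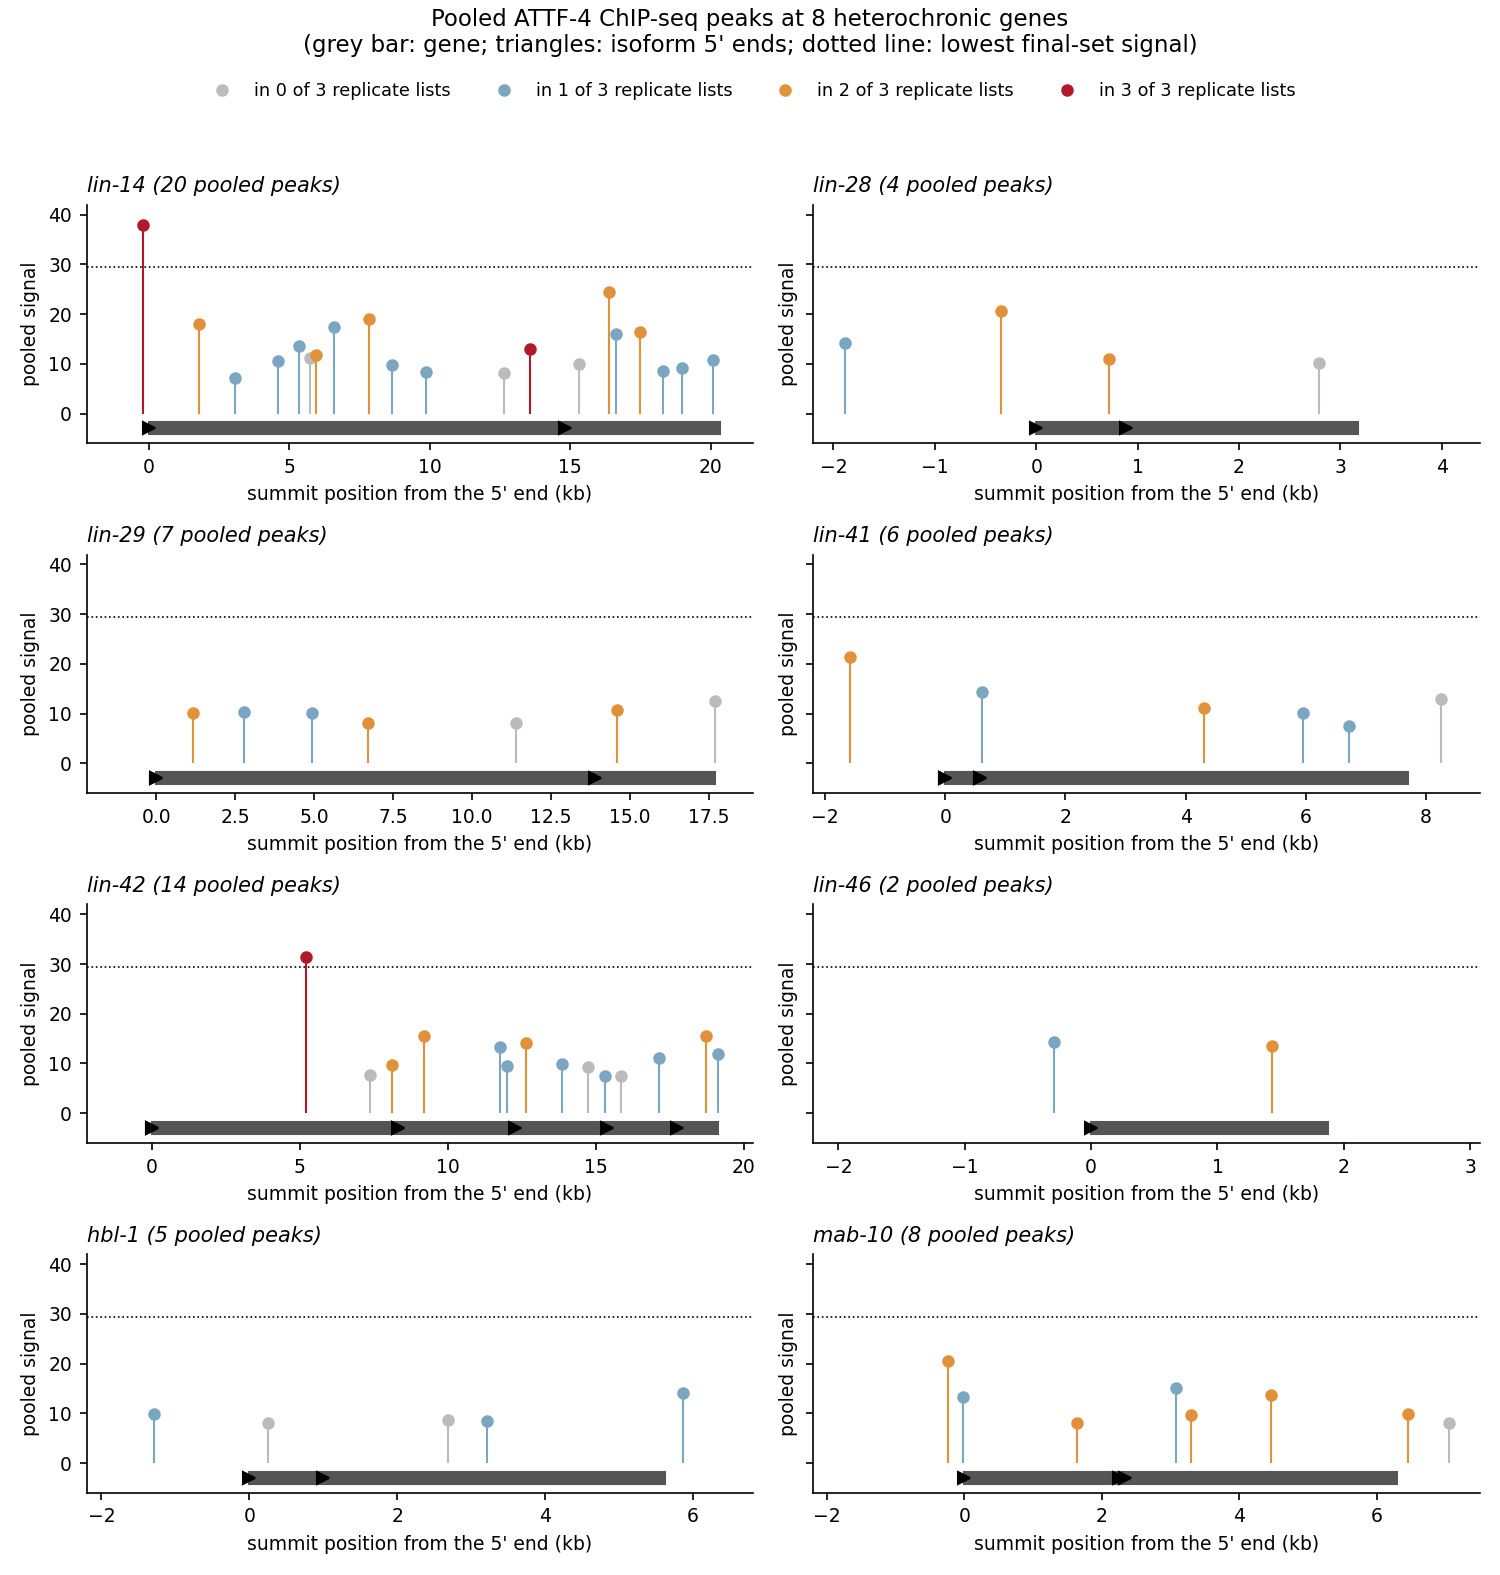
Signal of each pooled peak (vertical axis, the authors' units) against its distance from the outermost 5' end in kb, for each of the 8 genes; colour gives the number of replicate lists with a summit within 100 bp, and the dotted line is the lowest final-set signal, 29.4. The lin-14 upstream peak and the lin-42 intronic peak alone rise above the line.

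Set beside each other, the strongest peaks of the 8 genes fell in the order lin-14, lin-42, lin-41, lin-28, mab-10, lin-46, hbl-1 and lin-29 by pooled rank. Their −log10 q-values, in the same sequence of genes, were 2.69, 2.69, 1.74, 1.69, 1.69, 0.68, 0.66 and 0.44. No other peak of a gene had a higher value, and the median over the pooled list was 0.144. Neighbours in the middle of this order were close, with signals of 21.4, 20.6 and 20.6 for lin-41, lin-28 and mab-10 and of 14.4 and 14.2 for lin-46 and hbl-1. Replicate ranks of a single gene spread far wider than those gaps. A pooled peak among the 1000 strongest lay at 5 of the 8 genes (lin-14, lin-42, lin-41, lin-28 and mab-10), against 6.34% of all protein-coding genes. By window length that was 2 of 3 long windows, against 16.7%, and 3 of 5 shorter ones, against 6.19%, and the median window over all protein-coding genes was 5.03 kb. Any pooled peak at all was present at 72.7% of genes, so its presence at all 8 says little. In 5 of the 8 genes the strongest peak lay upstream of the 5' end, against 40.2% of the genes with a peak.

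**Figure D3:**
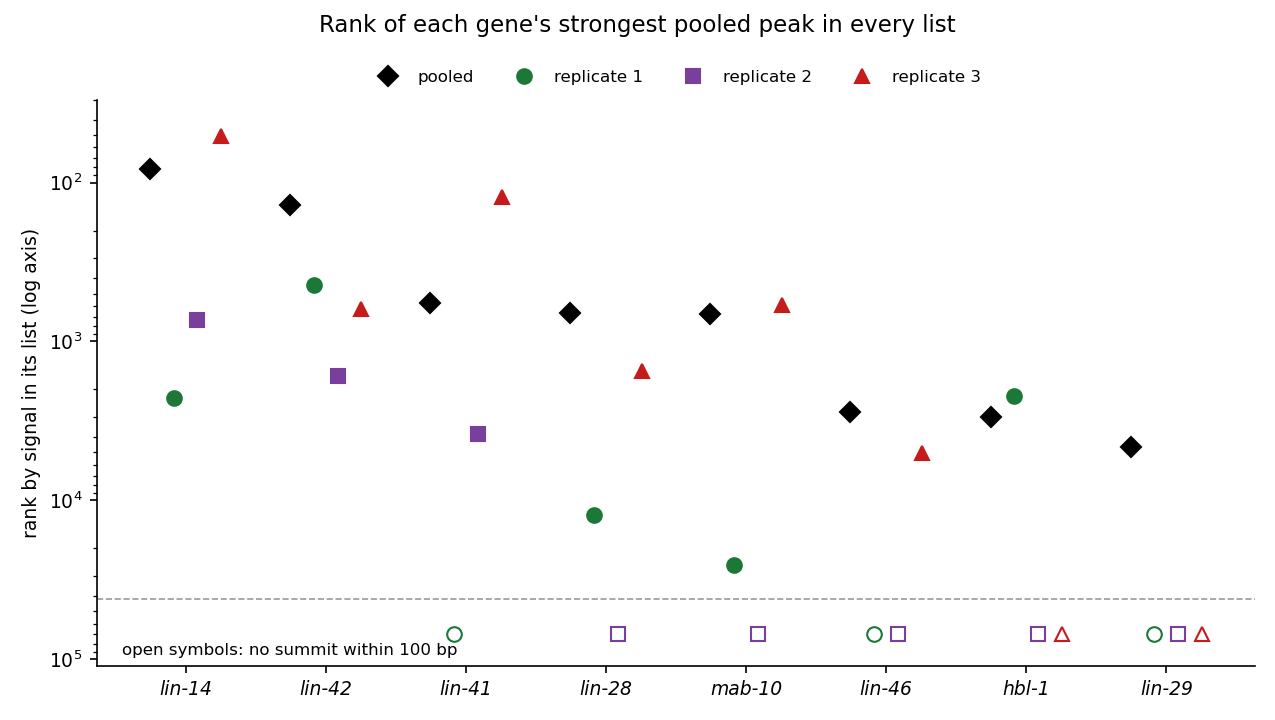
Rank by signal of each gene's strongest pooled peak in the pooled list and in the 3 replicate lists (log axis, stronger peaks higher up); open symbols below the dashed line mark a replicate list with no summit within 100 bp. lin-14 and lin-42 have filled symbols for every replicate, and lin-29 has none.

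The strongest peak of a gene was often not the same in different lists. The strongest replicate summit lay within 100 bp of the strongest pooled one for 1 of the 8 genes in replicate 1, 0 in replicate 2 and 6 in replicate 3. Over all genes with summits in both lists the shares were 27.6%, 18.8% and 38.6%. The strongest pooled places at these genes were thus mostly those of replicate 3. By replicate 1 alone the best-ranked genes were hbl-1 (rank 251) and lin-14 (rank 257), and by replicate 2 alone lin-14 (rank 134) and mab-10 (rank 253). lin-14 and lin-42 were the members with a summit among the 1000 strongest of each replicate. For lin-14 the strongest lay 16488 and 16474 bp past the outer 5' end in replicates 1 and 2 and 186 bp upstream in replicate 3. For lin-42 they lay near each other, 5240, 5448 and 5217 bp past the outer 5' end in replicates 1, 2 and 3.

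Of the 66 peaks, 3 were found in all 3 replicate lists (4.55%, against 2.6% of all pooled peaks), 2 at lin-14 and 1 at lin-42. At least 2 lists held 25 of them (37.9%, against 22.2%) and no list held 13 (19.7%, against 25.5%). By comparison 53.1% of the nuclear final-set peaks were found in all 3. Replicates 1, 2 and 3 held 23, 24 and 34 of the 66. For replicate 2 that was 36.4% against 20.1% of all pooled peaks, for replicate 1 it was 34.8% against 33.2%, and for replicate 3 51.5% against 46.0%. Matching within 200 bp raised the count found in all 3 to 14 peaks (21.2%, against 6.80% of all pooled peaks), so most of the 14 were matched loosely. They are not 14 separate places, since the mab-10 peaks at 3073 and 3291 bp match the same summit in each replicate. Replicate summits were also denser in the member windows than over all genes, as given below, and the part of this in the matches was not tested.

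The heterochronic genes were also denser in listed peaks, background entries included, than the average gene. Their windows, 105.8 kb in all, held 0.624 pooled peaks per kb, against 0.27 over all protein-coding windows and 0.267 over windows of at least 20 kb. Single members ran from 0.338 per kb at lin-29 to 0.861 at mab-10. In the replicate lists the values were 0.681 against 0.322, 0.567 against 0.238 and 0.728 against 0.322 per kb. Introns held 36 of the 66 summits (54.5%), exons 17 (25.8%), upstream flanks 8 (12.1%) and downstream flanks 5 (7.58%). Over all protein-coding windows the shares were 23.5%, 25.2%, 33.7% and 17.6%, with a summit counted once for each window it fell in, but long genes have long introns. In the 3 windows of at least 20 kb introns held 31 of 41 member summits (75.6%) and exons 8 (19.5%), against 63% and 23.9% over all such windows. The median signal of the 66 was 10.9 against 9.35 over the pooled list, and 7 of them (10.6%) were among the 1000 strongest, against 4.02% of all pooled peaks. An ncRNA gene lay within 100 bp of 6 of the 66 (9.09%), against 4.94% of all pooled peaks and 23.1% of nuclear final-set peaks.

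GC content at the 66 summits had a median of 40.8% and ran from 20.4 to 62.2%, with medians of 37.3% over all pooled peaks and 45.8% over the nuclear final set. The A and T word AAATTT lay within 150 bp of 20 member summits (30.3%), against 46.9% of all pooled peaks and 27.9% of nuclear final-set peaks. GAGAGA lay at 15 of them (22.7%), against 21.2% and 50.3%. The strongest peaks of lin-41, lin-42 and mab-10 and the intronic lin-14 peak of rank 352 held it. The strongest peaks of lin-14, lin-28, lin-46, hbl-1 and lin-29 did not, while weak peaks such as a lin-29 peak of rank 17499 did. GCGCGC lay at 4 (6.06%, against 2.59% and 12.2%). These were the final-set lin-42 peak, the strongest lin-28 peak, the lin-14 peak of highest GC and a mab-10 peak of rank 18784. This word and GAGAGA were picked after sequences had been read. The lin-42 sequence holds both, so the member shares rest in part on it. CCTGCG lay at 3 (4.55%, against 3.78% and 15.7%). Like the other words, CCTGCG was chosen with earlier results of these data known. Shares for GAGAGA and CCTGCG at the members were close to those of all pooled peaks.

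A wider list around larval timing held 32 other genes, all matched in the annotation, and not all of them are heterochronic genes. Of the 32, puf-9 and mir-241 had a final-set peak in the same window. All 32 had a pooled peak, 159 in total, where 72.7% of all protein-coding genes had one. Their peak densities ran from 0.0772 per kb at grh-1 to 1.53 at lep-5, so values as high as those of the 8 genes also occurred there. A peak among the 1000 strongest lay at 11 of them, and the shares by type of gene follow. Of the 25 that encode proteins 1 had a final-set peak and 10 had a peak among the 1000 strongest. These are to be read against the shares of 1.09% and 6.34% above. Among those 10, daf-12, sea-2 and din-1 have windows of at least 20 kb, where the share for the 1000 strongest was 16.7%. Of the other 7, which are miRNA and lincRNA genes, 1 had both, against 2.2% and 10.8% of all such genes, of which 62.4% had a pooled peak. puf-9 encodes a Pumilio family RNA-binding protein known to act on hbl-1 mRNA, and its 5' end lies 13.8 kb past the hbl-1 gene on the same strand. Its peak, 326 bp upstream, had a pooled signal of 55.7 (rank 38), above that of any of the 8 genes. Replicate 1 gave it a signal of 13.2 (rank 159), replicate 2 8.38 (rank 304) and replicate 3 39.4 (rank 32). No replicate thus ranked it below 304, whereas the strongest peak of each of the 8 genes lay outside the 1000 strongest, or had no match, in at least 1 replicate.

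mir-241 encodes a let-7 family microRNA that acts with mir-48 and mir-84 to lower HBL-1 after the L2 stage. Its only pooled peak lay 437 bp upstream of the annotated gene, with a signal of 36.4 (rank 90) and the ncRNA gene F56A12.8 close by. Replicate 1 held it with a signal of 13.2 (rank 163) and replicate 3 with 18.1 (rank 185), while the nearest replicate 2 summit lay 103 bp away at rank 145. mir-48 lies downstream on the same strand, and the peak lay 2211 bp from its annotated 5' end, just outside the window. The mature sequences, read from the same genome, are given with the seed, bases 2 to 8, in capitals, because both carry the same seed.
mir-241: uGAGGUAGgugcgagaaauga
mir-48: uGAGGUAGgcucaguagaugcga

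The next 4 genes of this list by signal were let-60, which encodes Ras (29.0, rank 177, 1457 bp upstream), kin-20, a casein kinase 1 gene related to the clock gene doubletime (27.7, rank 217, 2170 bp inside), ain-1, which encodes a microRNA complex protein of the GW182 type (25.9, rank 279, 996 bp upstream), and din-1, a corepressor of the nuclear receptor DAF-12 (25.2, rank 311, 1547 bp upstream). The ain-1 and din-1 peaks were found in all 3 replicate lists, the kin-20 peak in replicates 1 and 3, and the let-60 peak in replicate 3 alone. The nearest replicate 1 summit to the let-60 peak lay 109 bp away at rank 1594. Chosen after their values were seen, lin-4 had a peak 480 bp upstream with a signal of 14.2 (rank 2963), found in all 3 lists, and let-7 one 222 bp past its annotated 5' end with 17.7 (rank 1267), found in replicate 1 alone. The nearest replicate 2 summit to the let-7 peak lay 131 bp away at rank 2418.

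**Figure D4:**
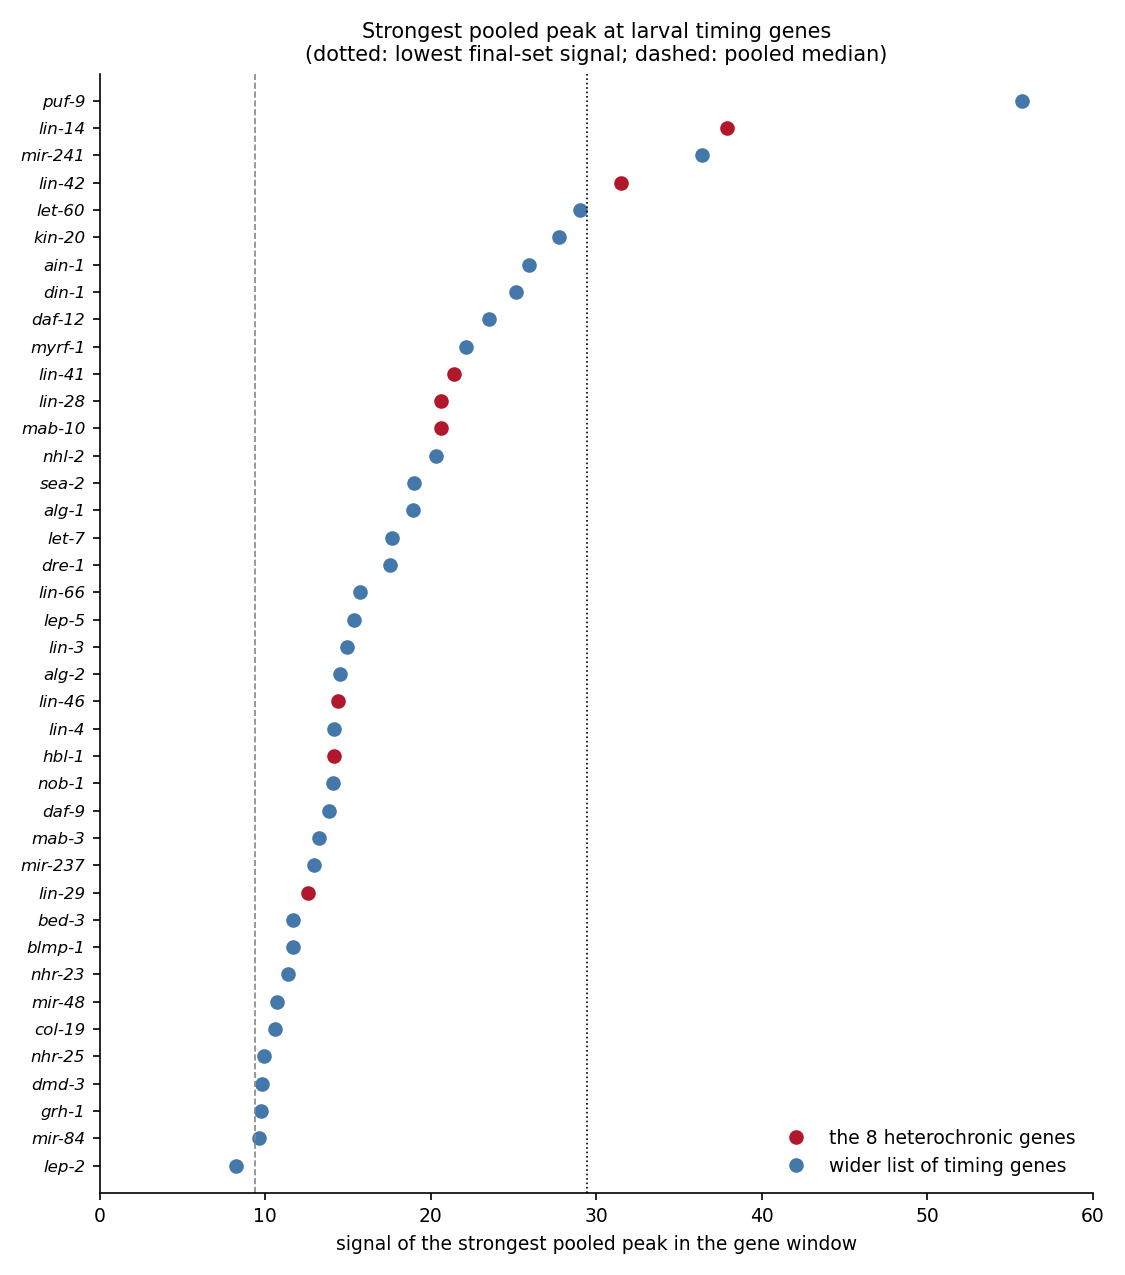
Signal of the strongest pooled peak in each gene window, in order of signal, for the 8 heterochronic genes (red) and 32 wider-list genes (blue). The dotted line is the lowest final-set signal (29.4) and the dashed line the pooled median (9.35). puf-9, lin-14, mir-241 and lin-42 lie above the dotted line, and the 8 genes spread from 12.6 for lin-29 to 37.9 for lin-14.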

How the data were processed

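Per the deposited file notes, the authors made each replicate list from the alignment of 1 biological replicate, which its technical libraries share, and the pooled list from all 3 alignments, with a control, and derived the final set by the irreproducible discovery rate. The deposited lists hold a signal and a −log10 q-value per peak. Which aligner and peak caller were run is not given in the sources used here. Read counts are not part of these lists, so depth is unknown and no interval is given. Lists on ce11 were used, and those on ce10 were not.

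Genes came from Ensembl release 115 and sequences from the RefSeq genome of the same build. Summits were counted from 1 and given to windows and isoforms by position. let-7 was matched through its RefSeq locus tag. GC was taken within 100 bp and words within 150 bp of a summit, on both strands. Window assignment and replicate matching were tested on simulated data. Genes named were the 8 members, timing genes with a final-set peak, the next 4 by signal, and genes whose 5' end lies nearest to a final-set peak. Neighbours of other peaks, attf-4 and the ncRNA genes beside summits were named outside that rule, after values were seen. The same holds for mir-48, mir-84, daf-12, sea-2, grh-1, lep-5, lin-4 and let-7. The members, lists and words were chosen with earlier results of these data known. No test was run, because there is 1 group. Alternatives were other windows, assignment by interval, stricter calls, other matching distances and each replicate left out. Python 3.11.15, numpy 2.4.6, pandas 2.3.3 and matplotlib 3.10.9 were used.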

Additional observations from a re-analysis of the deposited data

How the results depend on the processing

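The count of 66 pooled peaks stayed between 53 and 77 under every window and assignment tried. The 2 final-set peaks and the 2 genes with one each fell to 1 with gene bodies only, which leaves out the upstream lin-14 peak by construction, and to 1 among final-set peaks above the set's median signal, which leaves out lin-42; other windows, assignment by interval and the highest −log10 q-value left them at 2. The 3 peaks found in all replicates became 1 with summits within 50 bp, 14 within 200 bp, 21 with any shared base and 0 among the 1000 strongest of each list, and 8 to 13 when 1 replicate was left out. The strongest peak lay at the pooled place for 1 gene by replicate 1, 0 by replicate 2 and 6 by replicate 3. No paired analysis was possible because there is 1 group and no test. Limits are the unknown depth, the unstated signal scale, background entries in the lists, and the choice of genes with earlier results known.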
